A study of Mus musculus with 10 samples.

Results

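The genes described here are the nuclear genes for the protein subunits of oxidative phosphorylation, the pathway by which mitochondria make ATP. They were chosen by symbol, with a pattern that takes the Nduf, Sdh, Uqcr and Atp5 families, Cyc1, and the Cox4 to Cox8 symbols followed by a, b or c. It matched 83 of the 24541 gene symbols in the table. A symbol was dropped when more than 4 of the 10 libraries had under 10 counts, which left 80 members: 37 of complex I, 4 of complex II, 9 of complex III, 13 of complex IV and 17 of complex V. The 3 dropped symbols were Cox7b2 and Cox8c, with 0 counts in all libraries, and Cox8b, with 36 counts in all. All 80 members also passed the low-count filter of the test.

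Complexes I and II pass electrons from NADH and from succinate to ubiquinone, complex III passes them on to cytochrome c, and complex IV hands them to oxygen. Complexes I, III and IV pump protons, and complex V, the ATP synthase, uses the proton gradient to make ATP. In the kidney the pathway is best known from the tubules, where the proximal tubule and the thick ascending limb are rich in mitochondria and use much ATP for transport.

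RNA was sequenced from digested kidneys of C57BL/6 mice, from live cells that magnetic beads had retained by F4/80, a macrophage surface protein encoded by Adgre1. The mutant group was 4 mice with 1 allele of uromodulin carrying C105F (C105F/+), from Cas9 editing of C57BL/6J embryos. The control group was 6 wild-type littermates (+/+). All were 12 to 16 weeks old, and the labels name no treatment. The comparison asks what differs in RNA of the selected cells when the mutation is present.

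Libraries held between 45380415 and 73643200 estimated counts. Levels are given as CPM, counts scaled to library size with TMM factors. Umod itself had 1004 to 4331 CPM in the 4 mutant and 5784 to 15137 CPM in the 6 wild-type libraries. It did not pass the test between the groups described below. For a point substitution its RNA level does not check the labels. The 15 resident macrophage markers summed to between 1198 and 13826 CPM in mutants and between 411 and 6462 CPM in wild type. The 18 proximal tubule markers summed to between 33604 and 69615 CPM in mutants and between 32146 and 76829 CPM in wild type, so every library held more RNA of these tubule markers than of the macrophage markers. A macrophage marker score was given to each library, the mean log2 CPM of the 15 markers with each gene centred on its mean, and it ran from -2.10 for wild-type replicate 1 to 2.62 for mutant replicate 5. In such bulk samples fewer cells of a type and less RNA per cell cannot be told apart.

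The transcripts of the pathway were abundant. By the authors' FPKM, a level per transcript length and library depth, 72 of 80 members averaged at least 100 FPKM over the 10 libraries and 14 at least 1000 FPKM. Atp5b, the catalytic beta subunit of the ATP synthase (gene 11947, mm10 chromosome 10, 128083307 to 128090388), had the highest mean level, 2125 FPKM. The next highest were Ndufa4 with 1661 FPKM, Atp5g3, a gene for the c subunit of the membrane rotor, with 1622 FPKM, and Cox6b1, a subunit of complex IV, with 1569 FPKM. Ndufa4 was named as a complex I subunit and has since been placed with complex IV. The median level was 328 FPKM in complex I, 415 FPKM in complex II, 451 FPKM in complex III, 730 FPKM in complex IV and 824 FPKM in complex V. In complex II the 4 subunits lay close together, from 331 FPKM for the flavoprotein Sdha to 470.4 FPKM for the membrane anchor Sdhc.

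The 8 members under 100 FPKM were Cox7a1 (84.8 FPKM), Ndufa11 (55.3 FPKM), Atp5sl (35.3 FPKM), Ndufs5 (8.89 FPKM), Cox6b2 (8.57 FPKM), Atp5s (7.06 FPKM), Ndufa4l2 (3.06 FPKM) and Cox6a2 (1.41 FPKM). Several of them are tissue isoforms or no structural subunits. Atp5s, Atp5sl and Ndufa4l2, and the more abundant Cox7a2l, are not taken as structural subunits. Their symbols matched the pattern, so the counts and medians by complex include them. Cox6a2 and Cox7a1 are the isoforms of heart and skeletal muscle, Cox6b2 is a testis isoform, and Ndufa4l2 is a hypoxia-induced relative of Ndufa4. The widely expressed counterparts stood far higher, with 1441 FPKM for Cox6a1, 1569 FPKM for Cox6b1 and 688 FPKM for Cox7a2. Ndufa11 was low per length but not in counts. It averaged 151 CPM at a length of 2661 bases, while Ndufb2, at 216 FPKM, averaged 102 CPM at 455 bases. The 7 striated muscle markers summed to between 0.203 and 1.83 CPM over all libraries, with Tnnt3 at 0 throughout. Of the 6 fat markers Elovl3 was at 0 throughout and Ucp1 reached 0.0559 CPM at most, and Fabp4, which endothelium also expresses, reached 57.9 CPM. Of the Atp5g genes, which encode the same mature c subunit, Atp5g3 was followed by Atp5g1 (470.2 FPKM) and Atp5g2 (330.1 FPKM).

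**Figure D1:**
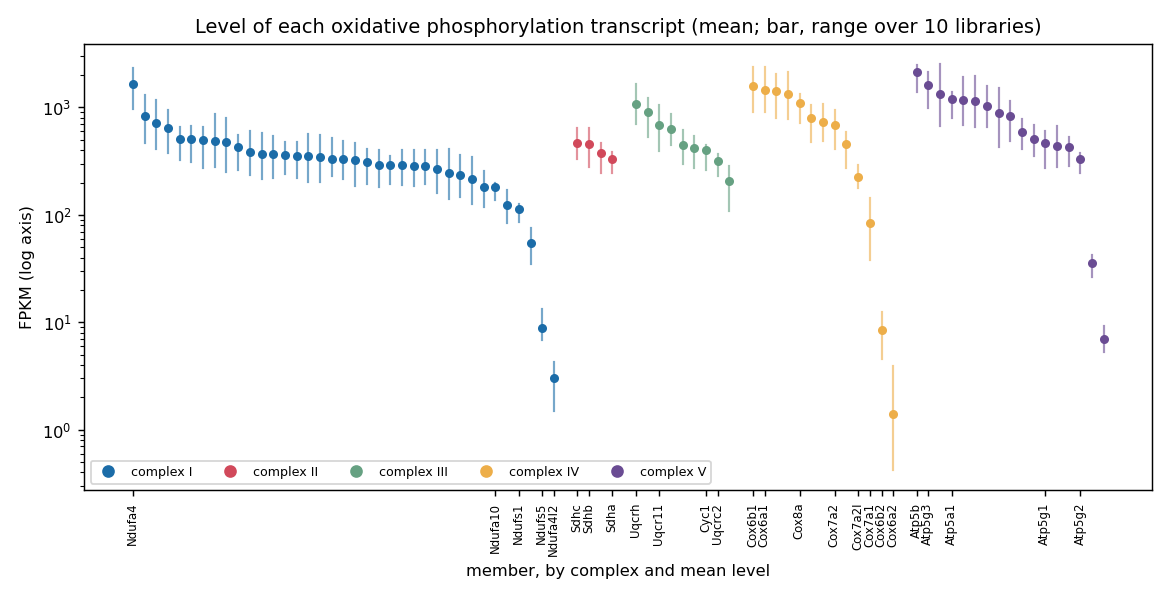
Mean FPKM of each of the 80 members (points, log axis) with the range over the 10 libraries (bars), by complex and in order of level, with names under the 25 members chosen by the naming rule. Most members lie between 100 and 2125 FPKM, and 8 lie below 100 FPKM.

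The low value of Ndufs5, a complex I subunit on the intermembrane side, stands beside a second locus. BC002163, which GENCODE M21 classes as a processed pseudogene, was 99.4% identical to an Ndufs5 transcript over 319 bases. It averaged 299.99 FPKM against 8.89 FPKM for Ndufs5. The sources used here do not say how reads that match both were apportioned, so neither level is certain. Of 79 members with a GENCODE transcript, 25 shared at least 200 bases at 95% identity or more with a transcript of another gene, 18 of them with a pseudogene. The other partners with a row in the table averaged between 0.0160 FPKM (Pdzd9, which shares 507 bases with Uqcrc2) and 23.6 FPKM (Mrpl47, which shares 216 bases with Ndufb5).

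No member passed the test between mutant and wild-type libraries. In the edgeR quasi-likelihood fit over 15123 genes 0 of 80 members passed an adjusted p of 0.05 (Benjamini-Hochberg), while 0.198% of all genes did, 0.179% higher and 0.0198% lower. At an unadjusted p under 0.05 edgeR gave 1 of 80 members, beside 892 of all 15123 genes. It gave 5 members with a replicate block over 8 libraries and 8 with the trend on transcript length removed. Outside the main fit genes at that threshold were counted among the members only, so those counts have no share over all genes beside them. DESeq2 also called 0 members (0.436% of all genes higher and 0.509% lower), with 1 at an unadjusted p under 0.05, and limma voom called 0, with 0 at an unadjusted p under 0.05. The estimates leaned to lower levels in mutants: 72 of 80 log2 fold changes were negative, with a median of -0.13, against a median of 0.01 over all genes, of which 48.8% were negative. By complex the median was -0.13 for complex I, -0.16 for complex II, -0.12 for complex III, -0.16 for complex IV and -0.10 for complex V. Single libraries decided this lean. The median over the 80 members was 0.04 without mutant replicate 5, 0.02 without wild-type replicate 1 and -0.04 without mutant replicate 4, and it was -0.27 and -0.33 without mutant replicates 1 and 2. With the macrophage score as covariate it was 0.08, and 21 of 80 estimates were negative.

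The 9 markers of the thick ascending limb, Umod among them, summed to between 2559 and 8214 CPM in mutants. The sum was between 10552 and 23933 CPM in wild type, with no overlap. Among single genes, the groups did not overlap for 1.96% of all genes. Of the 9 markers 1, Egf, was called lower, beside 0.0198% of all genes. Umod was not called (log2 fold change -2.03, SE 0.445; edgeR, adjusted p = 0.184). The mean centred log2 CPM of the 9, in which each gene weighs the same, did overlap, from -1.24 to 0.096 in mutants and from -0.13 to 0.69 in wild type. None of the 9 was at 0 throughout. Their part in the fold changes of the members was not tested.

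**Figure D2:**
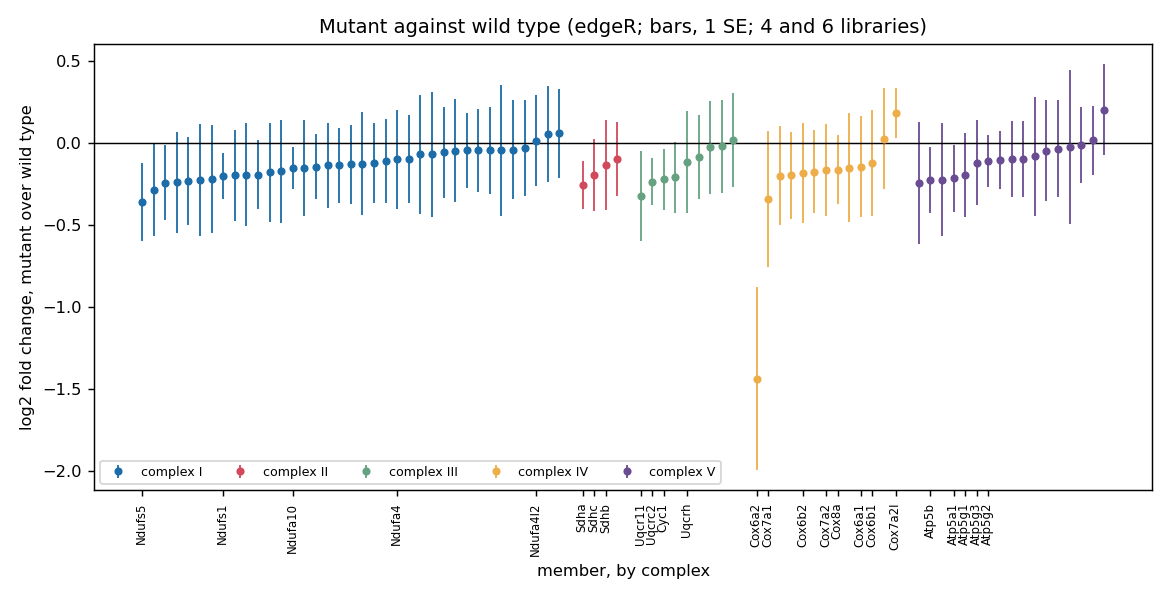
Log2 fold change of each member, mutant over wild type, with 1 SE, by complex (edgeR, 4 mutant and 6 wild-type libraries), with names under the 25 members chosen by the naming rule. Most points lie just below 0, the lowest is Cox6a2 at -1.44, and no member passed the adjusted test.

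In complex I the members with the smallest p were Ndufs5, Ndufs1 and Ndufa10. Ndufs1 carries iron-sulphur clusters in the arm that takes electrons from NADH. It had 329, 318, 288 and 225 CPM in mutant replicates 1, 2, 4 and 5, and 276, 338 and 371 CPM as the lowest, median and highest wild-type values. Mutant replicate 5 lay below all wild-type libraries and the other mutants within their range (log2 fold change -0.20, SE 0.138; edgeR, adjusted p = 0.959). Ndufa10, an accessory subunit of the membrane arm, had a log2 fold change of -0.15 with an SE of 0.126, the smallest SE of any member. Ndufs5 had -0.36 (SE 0.239) and its near-identical partner BC002163 had -0.13 (SE 0.278). Ndufa4, the most abundant Nduf transcript, had 1052, 1162, 563 and 452 CPM in the mutants and 626, 798 and 1360.3 CPM as the lowest, median and highest wild-type values. Its mutant replicates 1 and 2 lay inside the wild-type range and replicates 4 and 5 below it (log2 fold change -0.10, SE 0.303).

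In complex II, Sdha, which oxidises succinate, had 955, 921, 901 and 672 CPM in mutant replicates 1, 2, 4 and 5 and 858, 1016 and 1167 CPM as the lowest, median and highest wild-type values. Mutant replicate 5 alone lay below the wild-type range (log2 fold change -0.26, SE 0.147; edgeR, adjusted p = 0.957). Sdhb, the iron-sulphur subunit, had a log2 fold change of -0.13 (SE 0.274) and Sdhc one of -0.19 (SE 0.219). In complex III, Uqcrc2, a core subunit, had 579.8, 659, 543 and 407 CPM in the mutants and 575, 641 and 726 CPM as the lowest, median and highest wild-type values. Mutant replicates 4 and 5 lay below the wild-type range (log2 fold change -0.23, SE 0.145; edgeR, adjusted p = 0.958). Cyc1, the cytochrome c1 that hands electrons to cytochrome c, had -0.22 (SE 0.183) and the small subunit Uqcr11 had -0.32 (SE 0.274). Uqcrh, the most abundant transcript of complex III, had -0.12 (SE 0.313).

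Complex IV held the member farthest below 0. Cox6a2, the muscle isoform, had 0.313, 0.865, 0.418 and 0.352 CPM in mutant replicates 1, 2, 4 and 5 and 0.688, 0.869 and 3.03 CPM as the lowest, median and highest wild-type values. Mutant replicate 2 lay inside the wild-type range and the other mutants below it. The log2 fold change was -1.44 (SE 0.558), with an unadjusted p of 0.0259 and an edgeR adjusted p of 0.768, from 17 to 159 counts per library. Cox7a1 had 39.9, 43.0, 14.4 and 13.3 CPM in the mutants against 23.9, 27.0 and 61.6 CPM as the lowest, median and highest wild-type values. Again mutant replicates 4 and 5 were below the wild-type range and replicates 1 and 2 inside it (log2 fold change -0.34, SE 0.413). Cox7a2l, a factor that helps complexes III and IV join into supercomplexes, had 267, 334, 216 and 248 CPM in the mutants and 203, 224 and 303 CPM as the lowest, median and highest wild-type values. Its groups overlapped, with mutant replicate 2 the highest of all libraries (log2 fold change 0.18, SE 0.153; edgeR, adjusted p = 0.959). The common isoforms Cox6a1, Cox6b1, Cox7a2 and Cox8a had log2 fold changes of -0.14, -0.12, -0.16 and -0.16 (SE 0.212 to 0.323), and Cox6b2 one of -0.18 (SE 0.306).

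In complex V, Atp5b had 4189.9, 4633, 3478 and 2509 CPM in mutant replicates 1, 2, 4 and 5 and 3416, 4303 and 5404 CPM as the lowest, median and highest wild-type values. Mutant replicate 5 alone lay below the wild-type range (log2 fold change -0.22, SE 0.202; edgeR, adjusted p = 0.959). Atp5a1, the alpha subunit that alternates with it in the catalytic head, had -0.22 (SE 0.202). The c subunit genes Atp5g1, Atp5g2 and Atp5g3 had -0.19, -0.11 and -0.12 (SE 0.160 to 0.259). Atp5f1, the b subunit of the stalk, singled out after its values were seen, had the highest estimate of all members, 0.20 (SE 0.277), with 1043, 1161, 437 and 561 CPM in the mutants and 545, 686 and 954 CPM as the lowest, median and highest wild-type values.

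The libraries differed widely in how much of the pathway each held. The 80 members together took 4.14, 4.53, 2.98 and 2.36% of all counts in mutant replicates 1, 2, 4 and 5, and 3.30, 3.65 and 4.95% as the lowest, median and highest wild-type shares. Mutant replicates 4 and 5 lay below all wild-type libraries, and replicates 1 and 2 above most of them. The groups averaged 3.5 ± 1.01% (SD, n = 4) and 3.84 ± 0.632% (SD, n = 6). The highest library held 2.1 times the share of the lowest, and by complex that ratio was 2.3 for complex I, 1.77 for complex II, 2.02 for complex III, 2.3 for complex IV and 1.97 for complex V. The members moved as a block: all 80 lay above their own mean over the 10 libraries in wild-type replicate 1, 78 did in mutant replicate 2, 1 in mutant replicate 4 and 2 in mutant replicate 5. For 66 of 80 members the log2 CPM correlated above 0.9 with the median of the other members over the 10 libraries. This describes values that share libraries, depth and scaling. How often all genes or other gene sets do the same was not counted, so it is not shown to be particular to the members.

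**Figure D3:**
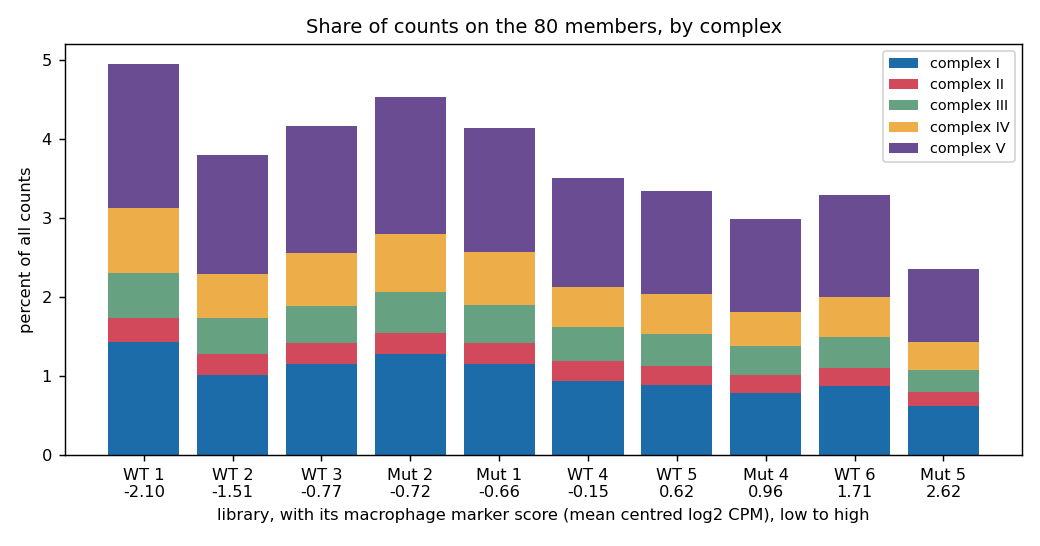
Percent of all counts on the 80 members in each library, stacked by complex, with the libraries ordered from low to high macrophage marker score (number under each bar). The share is highest in wild-type replicate 1 at 4.95% and lowest in mutant replicate 5 at 2.36%.

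The members were lower in libraries with more macrophage marker RNA. In an edgeR fit of group and macrophage score over all 15123 genes, 71 of 80 members were called lower along the score at an adjusted p under 0.05 and 0 higher, while 16.3% of all genes were called lower and 20% higher. The median member fell by 0.28 on the log2 scale for each unit of the score, which is itself on the log2 scale, against a median slope of 0.01 over all genes. By complex, 35 of 37 members of complex I were called lower (median slope -0.29), 4 of 4 of complex II (-0.23), 8 of 9 of complex III (-0.28), 10 of 13 of complex IV (-0.31) and 14 of 17 of complex V (-0.24). Without 1 library the count lay between 65 and 72, and 64 of the 71 were called in each of these 10 fits. Sdha of complex II had the largest adjusted p of the called members (edgeR, adjusted p = 0.0426). It was called in only 4 of the 10 fits, and Ndufs5 in 5. The other members that lost a call kept it in 8 or 9 fits. The steepest slopes, singled out after their values were seen, were those of Atp5e, the epsilon subunit of the ATP synthase, at -0.49 (SE 0.0796; edgeR, adjusted p = 0.000793), and Ndufa2, an accessory subunit of complex I, at -0.43 (SE 0.0641; edgeR, adjusted p = 0.000430). For each unit Sdhb fell by 0.30 (SE 0.0423), Ndufa4 by 0.32 (SE 0.0536), Cox6a1 by 0.31 (SE 0.0569), Cox7a1 by 0.40 (SE 0.0870) and Atp5b by 0.19 (SE 0.0399). Ndufs5 fell by 0.19 (SE 0.0633) and its partner BC002163 by 0.29 (SE 0.0512).

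The 9 members without a call were Ndufa10, Ndufa4l2, Uqcrc2, Cox6a2, Cox6b2, Cox7a2l, Atp5g2, Atp5f1 and Atp5s. Ndufa4l2 had the only slope above 0, 0.02 (SE 0.0968; edgeR, adjusted p = 0.912), on 85 to 269 counts per library. Slopes were -0.09 (SE 0.0433) for Uqcrc2, -0.08 (SE 0.0380) for Ndufa10, -0.10 (SE 0.0438) for Cox7a2l, -0.11 (SE 0.0458) for Atp5g2 and -0.16 (SE 0.0889) for Atp5f1. The slope of Cox6a2, -0.32, had an SE of 0.174. In an edgeR test of whether slopes differ between mutant and wild-type mice, 0 of 80 members passed, 1 had an unadjusted p under 0.05, and 0% of all genes passed.

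**Figure D4:**
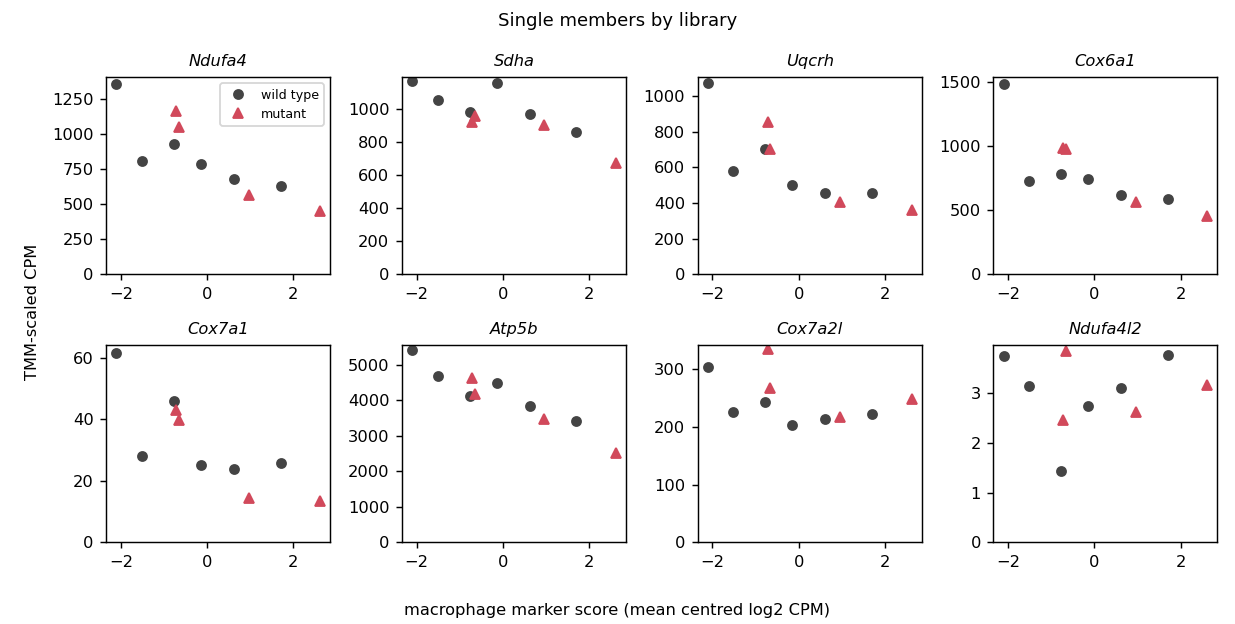
TMM-scaled CPM of 8 members in each library against the macrophage marker score of that library, with mutant and wild-type libraries marked apart. Ndufa4, Sdha, Uqcrh, Cox6a1, Cox7a1 and Atp5b had called slopes, and Cox7a2l and Ndufa4l2 had none.

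Fewer members were called within wild type. In the 6 wild-type libraries alone 23 of 80 members were called lower, all of them among the 71, and 0 higher, with a median slope of -0.22, while 4.1% of all genes were called lower and 8.72% higher. Against the proximal tubule marker score with its sign turned edgeR called 0 of 15123 genes, so the 0 of 80 members says nothing about the members. Of the members 5 had an unadjusted p under 0.05, a threshold not counted over all genes in this fit. The median slope of the members was -0.61. That score spanned only -0.508 (mutant replicate 5) to 0.488 (wild-type replicate 4). Along the macrophage score 3 of the 18 proximal tubule markers were called lower, with a median slope of -0.07, and 3 of the 9 thick ascending limb markers, with a median of -0.17, beside 16.3% of all genes. Markers of some other cell types were higher along it: 5 of 5 podocyte markers (median slope 0.70), 5 of 8 endothelial markers (0.24) and 5 of 10 markers of fibroblasts, pericytes and smooth muscle (0.33) were called higher, beside 20% of all genes. Of T cell, B cell and neutrophil markers 1 of each was called higher (medians 0.55, 0.18 and 0.69). Of 11 collecting duct markers 0 were called higher and 1 lower (median -0.08). Of 5 distal convoluted tubule markers 1 was called higher (-0.02), and of 5 erythroid markers 0 were called (0.07). The part of these cells in the slopes of the members was not tested.

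Transcript length went along with the slope. The members are short, with a median length of 742 bases against 2773 bases over all genes tested, and over the 80 members slope and length had a Spearman correlation of 0.59, given as a description. Members of up to 500 bases had a median slope of -0.34 and the 4 members over 2000 bases one of -0.16. Other genes showed the same order, from -0.24 for 153 genes of up to 500 bases to 0.05 for 10378 genes over 2000 bases. In each of the length classes plotted the median slope of the members lay below that of the other genes. With the trend on length removed in each library, 48 of 80 members were called lower and 0 higher, against 12.1% and 15.2% of all genes, and the median slope was -0.10. All 48 were among the 71.

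**Figure D5:**
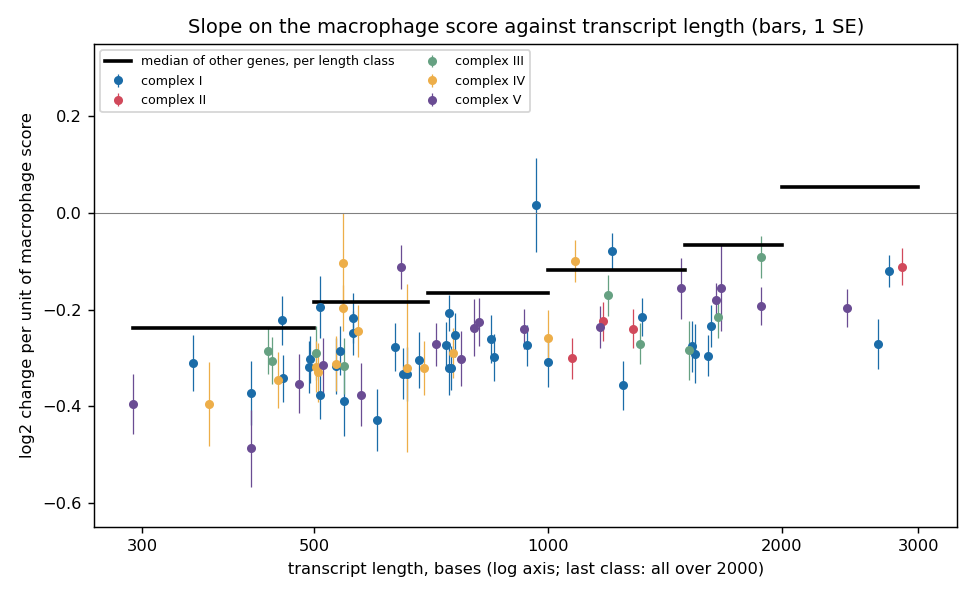
Slope of each member on the macrophage score (log2 change per unit, bars 1 SE) against transcript length in bases (log axis), coloured by complex, with the median slope of all other genes in each length class as lines. Slopes are steepest for short members, with a median of -0.34 up to 500 bases and -0.16 over 2000 bases.

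The promoters of the members were searched for motifs of factors known to drive nuclear mitochondrial genes. Windows from RefSeq (GRCm38.p6) ran from 250 bases before to 50 bases after the start of a gene, and 67 of 80 members had one. Both strands were searched for GCGCANGCG, a core of the site of nuclear respiratory factor 1 (NRF1), CCGGAAG, the core of ETS factors such as GABPA, TCAAGGTCA, the site of the oestrogen-related receptors, and AAGATGGCG, a core of the YY1 site. The NRF1 core was in 29.9% of members with a window and in 7.03% of all 27025 genes with one. The ETS core was in 23.9% and 9.93%, the receptor site in 2.99% and 0.466%, and the YY1 core in 11.9% and 1.64%. At least 1 motif was in 36 of 67 members and in 16.9% of all genes, and matches of different motifs overlapped in 0 members. Members with and without the NRF1 core had median slopes on the macrophage score of -0.27 and -0.29. The medians were -0.31 and -0.27 for the ETS core. They were -0.26 and -0.29 for the receptor site and also for the YY1 core. Sdha, with the NRF1 core, had a slope of -0.11, and Cox7a2l, with no match, one of -0.10. Atp5g2, whose slope had no call, also holds the NRF1 core. Whether motifs go with slopes was not tested. The promoters of Sdha, of Sdhd, a membrane anchor of complex II, and of Cox6a1 are shown because each holds at least 3 matches, and that of Cox7a2l because its slope had no call and its window holds 0. They lie on the minus strand at chr13:74350191-74350490, chr9:50603800-50604099, chr5:115348909-115349208 and chr17:83514284-83514583, and are written 5′ to 3′ with matched bases in capitals.
Sdha: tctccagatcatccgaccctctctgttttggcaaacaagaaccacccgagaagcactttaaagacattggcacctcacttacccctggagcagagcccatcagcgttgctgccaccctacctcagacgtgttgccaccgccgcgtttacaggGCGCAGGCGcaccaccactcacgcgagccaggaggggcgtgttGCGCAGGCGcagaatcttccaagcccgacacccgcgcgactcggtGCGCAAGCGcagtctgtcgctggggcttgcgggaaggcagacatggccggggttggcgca
Sdhd: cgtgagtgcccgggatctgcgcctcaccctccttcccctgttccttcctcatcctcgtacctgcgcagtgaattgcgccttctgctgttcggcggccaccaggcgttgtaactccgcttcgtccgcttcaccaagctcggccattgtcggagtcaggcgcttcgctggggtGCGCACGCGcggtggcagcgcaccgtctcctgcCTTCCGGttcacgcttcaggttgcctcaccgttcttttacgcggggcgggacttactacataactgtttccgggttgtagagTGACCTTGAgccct
Cox6a1: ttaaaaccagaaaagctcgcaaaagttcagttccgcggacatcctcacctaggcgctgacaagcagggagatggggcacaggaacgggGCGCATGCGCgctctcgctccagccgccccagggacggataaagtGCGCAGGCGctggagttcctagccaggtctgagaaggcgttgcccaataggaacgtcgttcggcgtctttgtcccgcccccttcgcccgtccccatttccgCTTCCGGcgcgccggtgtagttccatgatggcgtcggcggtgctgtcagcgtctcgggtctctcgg
Cox7a2l: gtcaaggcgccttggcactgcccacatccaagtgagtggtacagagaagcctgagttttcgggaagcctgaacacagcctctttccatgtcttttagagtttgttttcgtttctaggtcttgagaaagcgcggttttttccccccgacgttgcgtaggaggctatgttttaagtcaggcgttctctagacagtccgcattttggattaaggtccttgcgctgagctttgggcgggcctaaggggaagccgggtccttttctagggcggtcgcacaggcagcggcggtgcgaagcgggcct
A match describes letters in a window and does not show that a factor binds there.

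Other genes of the pathway were described from lists drawn up by function. Among subunits outside the symbol pattern, Cox4i1, the common isoform of the largest nuclear subunit of complex IV, fell by 0.34 (SE 0.0624; edgeR, adjusted p = 0.00149) for each unit of the macrophage score, and 6 of 7 tested genes of that list were called lower. Of the assembly factors, 13 of 14 for complex I and 23 of 31 for complexes II to V were called lower along the score, with median slopes of -0.16 and -0.19. Of 49 proteins of the large mitochondrial ribosomal subunit 48 were called lower (median -0.20), and of 16 enzymes of the tricarboxylic acid cycle and pyruvate dehydrogenase 9 were (median -0.13). Over all genes 16.3% were called lower along the score and 20% higher. Between genotypes edgeR called 0 genes of these lists, beside 0.198% of all genes. The median log2 fold changes of the lists were -0.02, -0.05, 0.01, 0.01 and -0.12, in the order given.

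Transcriptional regulators of mitochondrial genes were mixed. Of 15 tested, edgeR called 0 between genotypes, beside 0.198% of all genes. Perm1, a regulator of mitochondrial genes in striated muscle, had 4.17, 4.44, 1.79 and 2.11 CPM in mutant replicates 1, 2, 4 and 5 and 5.57, 8.94 and 11.0 CPM as the lowest, median and highest wild-type values. The groups did not overlap (log2 fold change -1.50, SE 0.304; edgeR, adjusted p = 0.13). Ppargc1a, which encodes the coactivator PGC-1 alpha, had 34.7, 45.6, 46.9 and 32.6 CPM in the mutants and 51.0, 55.2 and 70.5 CPM as the lowest, median and highest wild-type values. Its groups did not overlap either (log2 fold change -0.56, SE 0.153; edgeR, adjusted p = 0.377). Both were singled out after their values were seen, and groups did not overlap for 1.96% of all genes and for 0 of the 80 members. Along the macrophage score Tfam, the packaging and transcription factor of mitochondrial DNA, fell by 0.22 (SE 0.0354; edgeR, adjusted p = 0.000679) and Ppargc1b by 0.22, while Nrf1 rose by 0.13 (SE 0.0433; edgeR, adjusted p = 0.0408) and Pprc1 by 0.35. Of 13 symbols for subunits encoded by mitochondrial DNA, 0 were found among the gene symbols, so these subunits were not analysed here.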

How the data were processed

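The data were 10 RNA-seq libraries, 1 per mouse. The authors deposited an estimated count and an FPKM value for each of 36779 RefSeq transcripts, and 1 line was empty. The submitters' processing notes list StringTie 1.3.4d, Bowtie2 2.3.4.1, HISAT2 2.1.0, Trimmomatic 0.38, DESeq2 and mm10, without saying what each did. The deposited estimated counts are whole numbers, not scaled for depth. The deposited FPKM values, scaled by the authors, served only for levels.

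Both were summed per symbol. After filterByExpr and TMM scaling, 15123 genes were tested in R 4.3.3 by edgeR 4.0.16 (quasi-likelihood, robust dispersions), with Benjamini-Hochberg adjustment over all of them. Each SE was derived from the F statistic of its fold change. Slopes came from a fit of group plus macrophage score. Length was averaged over transcripts, weighted by counts. Near-identical copies were sought with blastn 2.17.0. In simulated counts for 15123 genes, mutant against wild type, 90% of genes raised 4-fold, 48% raised 2-fold, 88% lowered to 0.25 and 40% lowered to 0.5 of their level were recovered, and 7.64% of calls were false. The changed genes were drawn only from those above a minimum mean count, and noise was simulated for each gene independently. These rates need not hold for genes with few counts or for genes that move together. No libraries were duplicates, the smallest chi-square per symbol being 73.0.

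The members and lists were chosen with earlier results of these data known. The rule for named genes took called members, the 3 smallest p and the highest FPKM in each complex, and tissue isoforms. Alternatives were other scalings, no filter, DESeq2 1.42.0, limma 3.58.1, marker scores as covariates, a replicate block and leaving out each library. A correction for length, the wild-type libraries alone and the difference of slopes were added after seeing the data, and the NRF1 and YY1 motifs were shortened by 1 base after a first search with the longer forms.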

Additional observations from a re-analysis of the deposited data

Results flagged for a closer look

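Among 72 groups of values examined, 10 held a library far from the others of its group. The rule takes about 1 in 20 groups as the rate for independent values. In 9 of them wild-type replicate 1, which has the lowest macrophage score, was the highest of the 6 wild-type libraries: Atp5g3 at 1811 CPM (next 1262), Cox6a1 at 1486 CPM (next 784), Cox6b1 at 1429 CPM (next 920), Ndufs5 at 8.08 CPM (next 5.17), Sdhb at 821 CPM (next 526), Sdhc at 897 CPM (next 599), Uqcr11 at 546 CPM (next 325), Atp5e at 1231 CPM (next 651) and Ndufa2 at 621 CPM (next 330). These genes move together, so the 9 are not independent of each other. Atp5e and Ndufa2 were also singled out after their values were seen. The 10 groups are therefore no measure of an excess over that rate. The last was Cox6b2, highest in mutant replicate 2 at 5.71 CPM (next 4.1 CPM). Without wild-type replicate 1, 69 members were called lower along the macrophage score, in place of 71.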

How the results depend on the processing

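Between genotypes 0 members were called under each alternative run. Without 1 library the median over all members ran from -0.33 to 0.04. With a replicate block over 8 libraries the median was -0.23, against -0.19 in those libraries without the block, and 0 members were called. For each gene the mean log2 CPM of its group was subtracted. The remaining deviations of same-numbered mutant and wild-type libraries had correlations of 0.43, 0.28, 0.02 and 0.44 for replicates 1, 2, 4 and 5. Differently numbered libraries were not compared, so these values do not show whether the numbers mark pairs. The labels do not say that same-numbered mice were paired, so the main fit held no block. The macrophage score rose with replicate number in wild type, from -2.10 for replicate 1 to 1.71 for replicate 6. In mutants it was -0.66 and -0.72 for replicates 1 and 2, and 0.96 and 2.62 for replicates 4 and 5. Its part in these correlations was not tested. The block took the calls over all genes from 21 to 217.

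None of the following fold changes passed its test. With the macrophage score as covariate the sign turned, with log2 fold changes of 0.087 for Atp5g3, 0.12 for Cox6a1, 0.12 for Cox6b1, 0.047 for Cox7a2, 0.13 for Ndufa4, 0.11 for Sdhb, 0.011 for Sdhc, 0.14 for Uqcrh, 0.36 for Atp5e, 0.31 for Ndufa2 and 0.14 for Ndufa11. With the proximal tubule score they were 0.010 for Cox6a1, 0.018 for Ndufa4, 0.016 for Sdhb, 0.11 for Atp5e, 0.12 for Ndufa2 and 0.036 for Ndufa11. With the replicate block they were 0.045 for Cox6b2, -0.086 for Ndufa4l2 and -0.14 for Atp5s, and without it in the same libraries -0.074 for Ndufa4l2 and -0.11 for Atp5s. Upper quartile scaling gave -0.0036 for Ndufa4l2, and removing the length trend -0.0059 for Atp5s. Without 1 library the sign turned for Ndufa4l2 (-0.13 to 0.093), Atp5f1 (-0.040 to 0.41), Atp5s (-0.17 to 0.16), Cox6b1 (-0.38 to 0.084), Ndufa4 (-0.34 to 0.099), Uqcrh (-0.38 to 0.092), Atp5e (-0.35 to 0.34), Ndufa2 (-0.29 to 0.27), Ndufa11 (-0.28 to 0.14), Atp5g2 (-0.22 to 0.015), Atp5g3 (-0.34 to 0.061), Cox6a1 (-0.32 to 0.099), Cox7a2 (-0.39 to 0.019) and Sdhb (-0.33 to 0.048). The cause was not tested.

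Along the macrophage score 71 members were called lower with RLE scaling, 70 with no filter, 48 with the length trend removed (median slope -0.10), 23 in the 6 wild-type libraries alone (-0.22), where fewer samples enter, and 0 against the proximal tubule score (-0.61), a fit that called 0 of all 15123 genes. With that score slopes were 0.16 for Cox6b2, 0.052 for Cox7a2l, -0.16 for Ndufa4l2 and 0.22 for Atp5f1, turned in sign, as were 0.081 for Atp5g2, 0.13 for Cox6b2, 0.036 for Cox7a2l, 0.020 for Cox8a, 0.039 for Ndufa10 and 0.034 for Ndufs5 with the length trend removed. Without 1 library slopes ran from -0.049 to 0.078 for Ndufa4l2 and from -0.16 to 0.00059 for Cox6b2.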

Other observations

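Carriers and uncoupling proteins of the inner mitochondrial membrane and porins of the outer membrane were measured beside the subunits. Of 7 tested, 6 were called lower along the macrophage score: the porins Vdac1 (-0.19), Vdac2 (-0.14) and Vdac3 (-0.17), the phosphate carrier Slc25a3 (-0.24, SE 0.0452; edgeR, adjusted p = 0.00182) and the adenine nucleotide carriers Slc25a4 (-0.16) and Slc25a5 (-0.20). Over all genes 16.3% were called lower along this score and 20% higher. Ucp2, an uncoupling protein also known from macrophages, rose by 0.47 on the log2 scale for each unit of the score (SE 0.0385; edgeR, adjusted p = 3.1e-06). It had 155, 161, 248 and 465 CPM in mutant replicates 1, 2, 4 and 5 and 95.2, 195 and 374 CPM as the lowest, median and highest wild-type values, and the groups overlapped.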
